A study of Mus musculus with 88 samples.

Results

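The response to lipopolysaccharide (LPS) given together with prostaglandin E2 (PGE2) was compared, gene by gene, with the sum of the responses to each given alone. The cells were RAW 264.7, a mouse macrophage-like line. LPS is a cell-wall component of Gram-negative bacteria and PGE2 a lipid mediator made by cyclooxygenases. Cells were kept for 1, 2 or 4 h with 100 ng/ml LPS, with 10 µM PGE2, or with both. The series also holds cells given isoproterenol (ISO, 50 nM), alone or with LPS. Lipid binding protein, at 100 pM, is listed with LPS alone and with no other treatment. In every departure below, its absence therefore cannot be told apart from the joining of the 2 agents. Each array set RNA of treated cells against RNA of cells kept in plain medium for the same time, and each comparison was run in both dye orientations.

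The departure of LPS with PGE2 comes from 48 of the 88 arrays of the series: 16 with LPS alone, 16 with PGE2 alone and 16 with both, as 24 dye-swap pairs. The members were chosen by treatment, set number and time. There were 2 numbered sets at 1 h, where set 3 has no PGE2 array here, and 3 sets at 2 h and at 4 h, which gives 8 values per gene. The departure of a gene is its log2 ratio with both agents, minus that with LPS alone, minus that with PGE2 alone, within 1 set and time. A departure of 0 means that the 2 folds multiply. It can also be read as the PGE2 response in the presence of LPS (combination over LPS alone) minus the PGE2 response in medium. Whether sets are separate cultures is unstated. The p-values for the mean over times reflect spread among sets and between times together, so a departure that changes with time widens it. Those of the tests at and between single times rest on spread among sets within times. Spread among sets can be technical. The direction treated over medium is likely rather than stated. It rests on 10 known LPS targets, whose median was positive on 16 of 16 arrays with LPS alone (2.27 to 3.53).

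LPS is sensed by Toll-like receptor 4, which activates NF-kB, MAP kinases and interferon regulatory factors, and so induces cytokine, chemokine and immediate early genes. PGE2 acts on the receptors EP2 and EP4 of macrophages, which raise cyclic AMP and activate protein kinase A and the transcription factor CREB. The pathways meet at many promoters, and cyclic AMP is known to modulate the cytokine output of activated macrophages.

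Of 14 macrophage marker genes tested, 13 had a ratio other than 0 on at least 36 of the 48 arrays, against 10 of 27 markers of other cell types. Ratios to medium give no expression level, so the cell type could be checked no further. Of these 27 markers, 2 had an unadjusted p under 0.05 for the departure, against 8.98% of all genes, and the markers' mean departures ran from −0.37 to 0.09. Set 1 stood apart: the SD of the departure over genes was 0.285 to 0.386 in set 1 and 0.179 to 0.201 in sets 2 and 3. The 2 arrays of a PGE2 pair correlated poorly over genes (r from −0.59 to 0.352, with 5 of 8 pairs below 0), where pairs with LPS alone had r from 0.229 to 0.796 and the combination 0.304 to 0.857.

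Most genes lay close to the sum. Over the 7792 genes with a value other than 0 on at least 36 of the 48 arrays, the combination correlated with the sum at r = 0.856 (1 h), 0.937 (2 h) and 0.970 (4 h). With LPS alone the combination correlated at r = 0.817, 0.943 and 0.9655 at these times. The r values therefore do not tell the sum from LPS alone. Genes of 1 set of arrays are not independent replicates, so these are descriptions. The slope of the combination on the sum was 0.626, 0.797 and 0.899 at the same times, and the sum carries the measurement error of 2 ratios. The slope on LPS alone was 0.784, 0.890 and 0.9515. Over these genes the SD of the departure was 0.222, 0.151 and 0.152, and that of the PGE2 ratio 0.187, 0.123 and 0.148. The median absolute departure was 0.123 (1 h), 0.0727 (2 h) and 0.0734 (4 h). The mean over the 8 values lay within 0.25 log2 of 0 for 97.3% of all 10518 genes, with a median of 0.0012. A mean departure of at least 0.5 in size was seen for 49 genes and one of at least 1 for 3 genes.

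**Figure D1:**
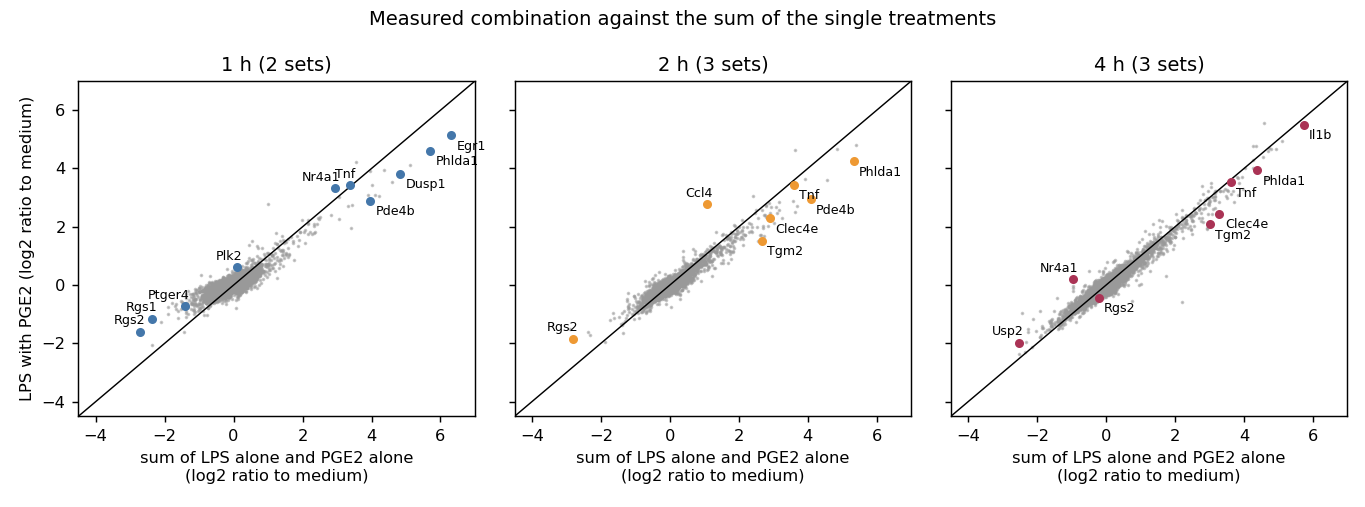
Log2 ratio to medium of LPS with PGE2 (vertical axis) against the sum of the log2 ratios of LPS alone and PGE2 alone (horizontal axis), means over sets, for the 7792 genes measured on at least 36 of 48 arrays; grey points are genes, coloured points named genes, and the line marks equality. At 1 h Egr1 and Phlda1, with a high sum, lay below the line, and Rgs1 and Rgs2, with a low sum, above it. Nr4a1 at 1 h and Ccl4 at 2 h also lay above it. An error in the sum moves a gene off the line the opposite way.

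No gene passed adjusted p under 0.05 for the mean departure in limma (0 of 10518 called, 0%). The smallest adjusted p was 0.0599, for Angpt2, and 20 genes lay under 0.1. At unadjusted p under 0.05 there were 944 genes, 8.98% of those tested, of which 467 (4.44%) were above the sum and 477 (4.54%) below it. All 8 values had 1 sign in 240 genes (2.28%), positive in 126 and negative in 114. When only the 7792 genes measured on at least 36 arrays were tested, 12 passed (0.154%), 6 above and 6 below the sum. Other settings gave 0 to 16 calls, the 16 from arrays of 1 dye orientation only, and without set 1 there was 1. At single times limma called 0 genes at 1 h (0%, 1076 at unadjusted p under 0.05), 0 at 2 h (0%, 622) and 1 at 4 h (0.00951%, 633). The F test between times called 0 (0%), with 570 at unadjusted p under 0.05.

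The 1 gene called at 4 h was Acod1, which makes itaconate, at −0.95 ± 0.05 (SD, n = 3, adjusted p = 0.0335 in limma). Acod1 was listed at exactly 0 on 6 of 6 arrays with LPS and on 6 of 6 with the combination at that time, while its log2 ratio with LPS alone was 4.62 at 2 h. Its departure at 4 h is therefore only the PGE2 ratio of 0.95 with its sign turned. No label explains an exact 0, and with zeros taken as missing no gene was called at 4 h. At 1 h and 2 h the departures of Acod1 were −0.06, 0.02, −0.27, 0.06 and −0.24, on both sides of 0.

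The single-treatment ratios named here were not tested and are given as levels. Median departures of genes grouped by their single ratios differed in sign between groups. To keep the choice of genes apart from the values read, genes were chosen by their single-treatment ratios in 1 set and their departures were read in the other sets, in turn for each set. This separates errors of 1 set only, and an error that a gene shares across sets would act on both. Where both single ratios were at least 0.5 (15 to 35 genes at 2 h), the median departure in the other sets was −0.61 to −0.43, and 97.1% to 100% of these genes were below 0. At 4 h the same choice (18 to 47 genes) gave −0.31 to −0.23. At 1 h it gave −0.70 for the 26 genes chosen in 1 set and −0.15 for the 63 chosen in the other. The bins with 15 and 18 genes are thin. Where both single ratios were at most −0.5, the median departure was positive at every time, from 0.15 to 0.37 (1 h), from 0.22 to 0.43 (2 h) and from 0.28 to 0.53 (4 h), over 8 to 111 genes, some choices holding under 20.

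With a sum of at least 2 in the choosing set, the median departure was −0.52 to −0.17 at 1 h (31 to 55 genes), −0.42 to −0.28 at 2 h (53 to 95 genes) and −0.18 to −0.07 at 4 h (115 to 173 genes). With a sum between −1 and 1 it was −0.0039 to 0.0057 at 2 h and 0.0048 to 0.0101 at 4 h. With a sum of −1 or less it was 0.06 to 0.24 at 2 h and 0.10 to 0.16 at 4 h. Genes with an LPS ratio of at least 0.5 and a PGE2 ratio within 0.25 of 0 had medians of −0.14 to −0.06 at 2 h and −0.07 to −0.04 at 4 h. Genes with an LPS ratio of at least 0.5 and a PGE2 ratio of −0.5 or less also lay above the sum at 1 h and 2 h, with medians of 0.27 to 0.45 (11 to 13 genes) and 0.08 to 0.35 (12 to 19 genes), and had −0.09 to 0.24 at 4 h (12 to 16 genes). With LPS within 0.25 of 0 and PGE2 at least 0.5 the medians were −0.43 to −0.04 at 1 h, −0.19 to −0.0026 at 2 h and −0.10 to 0.07 at 4 h. With LPS within 0.25 of 0 and PGE2 at most −0.5 they were 0.03 to 0.21, 0.02 to 0.12 and −0.17 to 0.04. Medians away from 0 were thus also seen where the single ratios differed in sign, and several of these choices held under 20 genes.

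**Figure D2:**
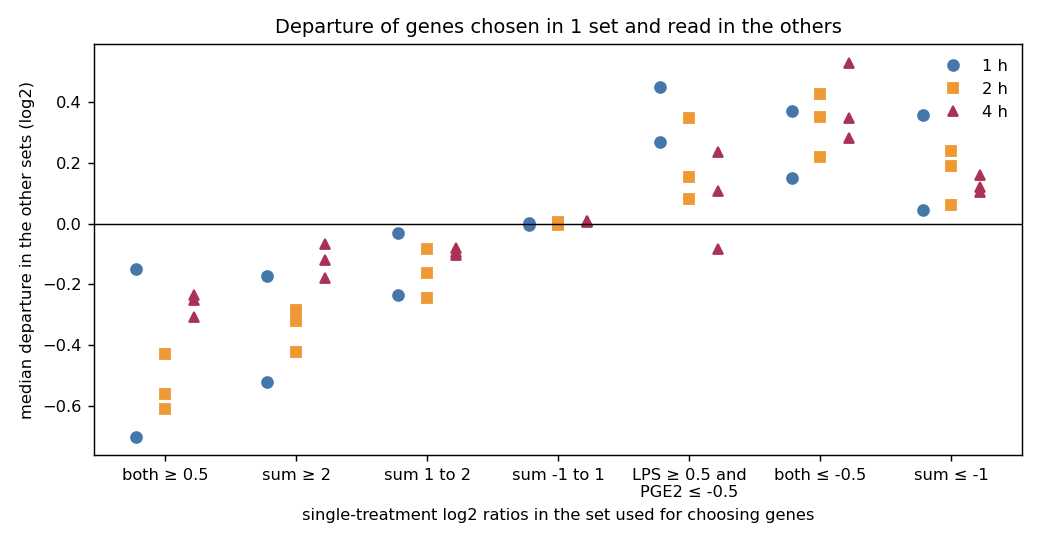
Median departure (log2, vertical axis) in the sets not used for the choice, for genes grouped by their single-treatment log2 ratios in 1 set (horizontal axis), by time; each point is 1 choosing set. Points for genes with both ratios at least 0.5 lay below 0, and points for genes with both at most −0.5 above 0, at all 3 times.

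The same values can be read from the side of PGE2. Genes with a PGE2 ratio of at least 0.5 in the choosing set (54 to 66 genes at 2 h) had a median PGE2 response in the other sets of 0.25 to 0.45 in medium and of −0.08 to 0.12 in the presence of LPS. At 1 h the corresponding ranges were 0.12 to 0.66 and 0.06 to 0.08, and at 4 h 0.20 to 0.44 and 0.07 to 0.32. Genes with a PGE2 ratio of −0.5 or less had −0.50 to −0.09 in medium and −0.21 to −0.09 with LPS at 2 h, and −0.47 to −0.25 against −0.26 to −0.07 at 4 h. The departure holds both single ratios with a minus sign, and the 3 ratios of a set are each taken against medium, so an error in either moves the departure the opposite way within a set. Among the 944 genes at unadjusted p under 0.05, 436 of 477 below the sum had a sum above 0. Of the 467 above the sum, 417 had a sum below 0. Over all genes tested, the departure was opposite in sign to the sum in 7622 of 10518. The coupling also touches all these counts. They support nothing by themselves.

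The 12 genes that passed among measured genes are described next; they were named after their values were seen. Clec4e encodes Mincle, a C-type lectin receptor for microbial glycolipids, and had ratios above 0 with each agent. Its log2 ratio was 2.27 ± 0.13 with LPS and 0.63 ± 0.13 with PGE2 at 2 h, and 2.29 ± 0.13 with both (SD, n = 3). The departures were −0.28 and −0.59 at 1 h, −0.60, −0.47 and −0.74 at 2 h, and −0.53, −0.94 and −1.02 at 4 h, in order of set. All 8 lay below 0, and the combination equalled LPS alone to within 0.17 log2 on average at each time. The mean was −0.65 (SE 0.08), with adjusted p = 0.0749 in limma over all genes and 0.0166 over measured genes. The exact sign-flip p was 0.0078, the smallest that 8 values allow. Every gene with 8 values of 1 sign reaches it (240 of 10518, 2.28%). Clec4e was named from these same values, so the exact p adds no support. On a linear scale, where folds add instead of multiply, its mean departure was −0.10 with adjusted p = 0.59. The linear sum is the fold with LPS plus the fold with PGE2, less the level of medium. Where it fell below a fixed small floor, the floor took its place.

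Phlda1, a pleckstrin homology-like domain gene of the immediate early response, had the largest shortfall of these genes. Its departures were −1.48 and −0.68 at 1 h, −1.04, −0.95 and −1.26 at 2 h, and −0.43, −0.66 and −0.25 at 4 h, all below 0 and smaller in size at 4 h. Its log2 ratio at 1 h was 4.55 ± 1.49 with LPS, 1.15 ± 0.17 with PGE2 and 4.61 ± 1.09 with both (SD, n = 2). The mean departure was −0.84 (SE 0.13, adjusted p = 0.0828 in limma, 0.0417 over measured genes), which is a 1.79-fold shortfall from the product of the folds. On the linear scale it was −0.315 (adjusted p = 0.451).

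Ocstamp, a multi-pass membrane protein gene of osteoclast fusion, had LPS ratios of 2.00 at 2 h and 2.08 at 4 h. With both agents it stood at 1.83 and 1.76, although PGE2 alone gave 0.38 and 0.43. Its mean departure was −0.55 (SE 0.09) with 8 of 8 values below 0. Stk40, a pseudokinase gene, had a mean departure of −0.39 (SE 0.06), also with 8 of 8 below 0. On the linear scale these means were −0.313 and −0.175.

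Cytip, which binds cytohesin and tempers leukocyte adhesion, had ratios of opposite sign with the 2 agents. PGE2 alone gave 0.97, 1.11 and 0.76 at 1, 2 and 4 h, and LPS alone −0.07, −0.57 and −1.53. In the presence of LPS, PGE2 gave 0.41 ± 0.31 (1 h), 0.36 ± 0.17 (2 h) and 0.46 ± 0.52 (4 h). The departures were −0.43 and −0.70, then −0.88, −0.57 and −0.79, then −0.56, −0.13 and −0.24, all below 0, with a mean of −0.54 (SE 0.08) and of −0.996 on the linear scale. With zeros taken as missing the mean of Cytip was −0.43, with adjusted p = 0.2125 in limma. Cnnm2, a gene of magnesium transport, showed the same order of ratios, with a PGE2 ratio of 0.65 ± 0.13 at 2 h, an LPS ratio of −0.04 and 0.06 with both. Its mean departure was −0.40 (SE 0.06, 8 of 8 below 0), with its 2 probes at −0.18 and −0.62.

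Among the 6 genes above the sum, Lrrc17, which encodes a secreted leucine-rich repeat protein, was furthest from it. Its departures were 1.27 and 1.03 at 1 h, 1.13, 1.01 and 2.02 at 2 h, and 1.58, 0.97 and 0.29 at 4 h, all positive. At 2 h LPS gave −1.76 ± 0.53, PGE2 −1.14 ± 0.73 and both together −1.52 ± 0.49 (SD, n = 3), so the combination was no lower than LPS alone. At 4 h it was listed at 0 on 4 of 6 LPS arrays and 3 of 6 combination arrays, with at least 1 such array of each in every set. The mean was 1.16 (SE 0.16, adjusted p = 0.0828 over all genes and 0.0166 over measured genes in limma), and 1.28 with zeros taken as missing.

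Usp2, a ubiquitin-specific protease gene, stood at −1.52 ± 0.36 with LPS and −1.01 ± 0.20 with PGE2 at 4 h, and at −1.97 ± 0.36 with both. Its departures were 0.35 and 0.63, then 0.31, 0.75 and 0.76, then 0.27, 0.65 and 0.75, with a mean of 0.56 (SE 0.07), and of 1.08 on the linear scale. At its mean ratios of 4 h the linear sum of Usp2 is below 0, so the floor stood in for it. The value of 1.08 therefore depends on that floor and is no measure of a larger departure. On the log2 scale the combination at 4 h was lower than either agent alone but short of their sum. Htr1b, a serotonin receptor gene whose product couples to inhibition of adenylyl cyclase, had a mean departure of 0.54 (SE 0.08). Angpt2, a ligand of the endothelial receptor Tie2, had the smallest p. Its departures ran from 0.23 to 0.53, against LPS ratios of −0.58 at 1 h and −1.97 at 4 h and PGE2 ratios of −0.10 and −0.36. With zeros taken as missing the mean of Angpt2 was 0.27 in place of 0.35, with adjusted p = 0.31 in limma. Fgd6 averaged 0.33 (SE 0.05) and Olfr933, an olfactory receptor gene, 0.37 (SE 0.06), and in all these genes 8 of 8 values were above 0.

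**Figure D3:**
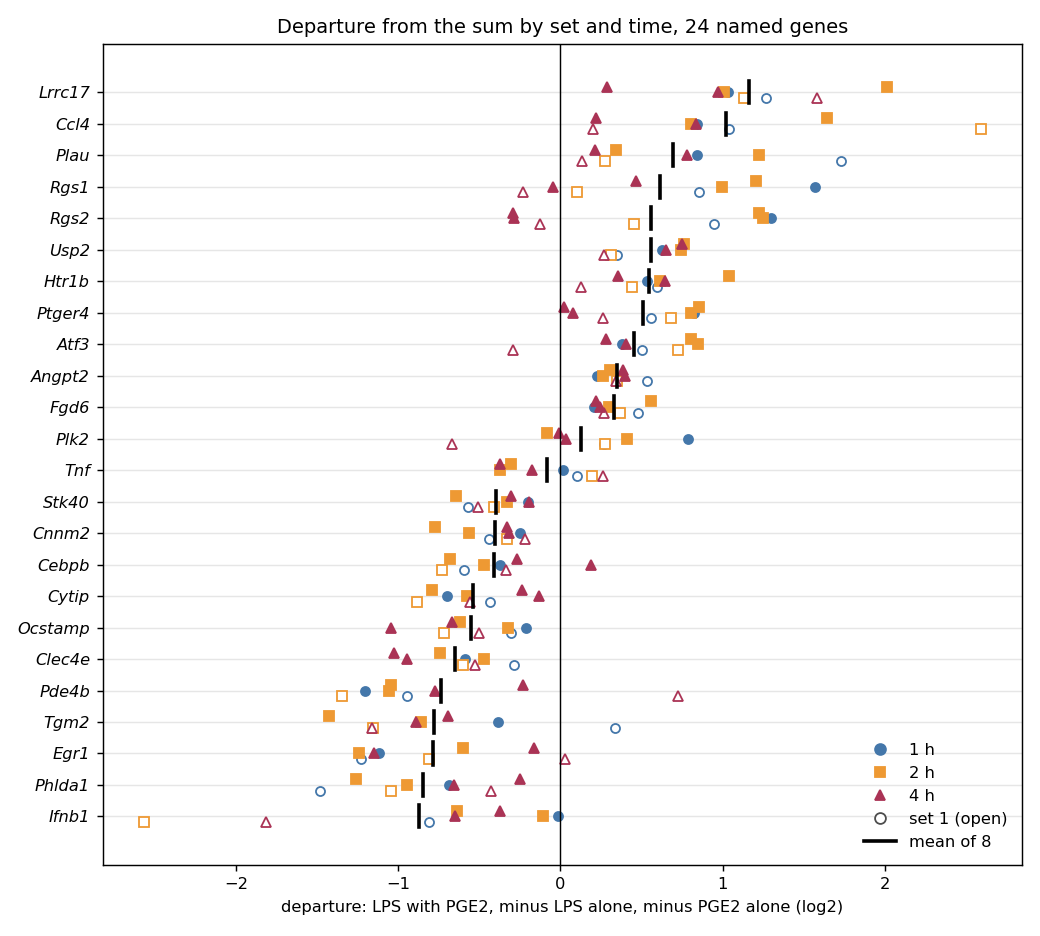
Departure from the sum (log2, horizontal axis) for 24 named genes ordered by mean, with 1 symbol for each of the 8 set and time values, coloured by time and open for set 1; the black bar is the mean of 8. Lrrc17, Usp2, Htr1b, Angpt2 and Fgd6 had all values above 0 and Phlda1, Clec4e, Ocstamp, Cytip, Cnnm2 and Stk40 all below it, while Tnf and Plk2 straddled 0.

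Of the 34 genes in a panel of cAMP, LPS and PGE2 response genes, none passed for the mean over all genes tested, and Cytip alone passed among measured genes. Pde4b, a phosphodiesterase that degrades cyclic AMP, had PGE2 ratios of 1.75 ± 0.23 at 1 h and 0.96 ± 0.65 at 2 h. With LPS present PGE2 gave 0.68 at 1 h and −0.18 at 2 h. The departures were −0.94 and −1.20 at 1 h, −1.35, −1.06 and −1.05 at 2 h, and 0.73, −0.77 and −0.23 at 4 h. All 5 values of the first 2 times were below −0.9, and those of 4 h spread over both sides of 0. The mean of 8 was −0.73 (SE 0.21, adjusted p = 0.346 in limma), and without 4 h it was −1.12 with adjusted p = 0.0459. On the linear scale its mean departure was 0.03.

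Tgm2, a transglutaminase induced by cyclic AMP and retinoids, showed the later course. At 4 h it reached 1.15 ± 0.10 with LPS, 1.85 ± 0.25 with PGE2 and 2.09 ± 0.37 with both. Its departures were 0.34 and −0.38 at 1 h, −1.16, −0.86 and −1.42 at 2 h, and −1.16, −0.89 and −0.69 at 4 h, so that all values from 2 h on were below −0.6. The mean was −0.78 (SE 0.17, adjusted p = 0.242), and on the linear scale −0.22 (adjusted p = 0.615). Cebpb, a transcription factor of myeloid activation, stood at 1.18 with LPS and 0.58 with PGE2 at 2 h, and at 1.14 with both. Its departures were −0.48 ± 0.16 (1 h), −0.63 ± 0.14 (2 h) and −0.14 ± 0.29 (4 h), and its mean of −0.41 became −0.19 on the linear scale. Id1, an inhibitor of helix-loop-helix factors, averaged −0.52 with 8 of 8 values below 0. Crem, a cAMP-responsive repressor gene, averaged −0.12 (SE 0.08).

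Nr4a1 and Nr4a2 encode orphan nuclear receptors that cyclic AMP induces in many cells. At 1 h Nr4a1 stood at 1.27 ± 0.19 with LPS and 1.67 ± 0.24 with PGE2, and at 3.34 ± 0.37 with both (SD, n = 2). At 4 h LPS alone gave −0.81 ± 0.14 and PGE2 alone −0.14 ± 0.15, yet both together gave 0.21 ± 0.31. The departures there were 1.11, 1.13 and 1.22, against 0.40, 0.19 and −0.34 at 2 h and 0.70 and 0.11 at 1 h. The 4 h values lay above all others, but neither the mean of 0.57 (SE 0.18, adjusted p = 0.387) nor the F test between times (adjusted p = 0.815) passed. Both combination arrays of set 1 at 2 h were listed at 0. Nr4a2 lay below the sum at 1 h, at −0.51 and −0.76, with PGE2 alone at 1.07 and both at 0.39. Its 2 probes had mean departures of −0.44 and 0.02.

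A further group had PGE2 ratios below 0. Ptger4 encodes EP4 itself. PGE2 alone gave −1.31 ± 0.02 (1 h), −1.09 ± 0.26 (2 h) and −0.54 ± 0.11 (4 h), and LPS alone lay between −0.16 and 0.22. With LPS present the PGE2 response was −0.62, −0.31 and −0.42. The departures were 0.56 and 0.82 at 1 h, 0.68, 0.81 and 0.85 at 2 h, and 0.27, 0.08 and 0.03 at 4 h, positive in 8 of 8, with every value of 1 and 2 h above every value of 4 h. The mean was 0.51 (SE 0.11, adjusted p = 0.224 in limma, exact sign-flip p = 0.0078) and the F test between times gave adjusted p = 0.774. Ptger2, which encodes EP2, averaged 0.14 (SE 0.14), with 4 values on each side of 0.

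Rgs1 and Rgs2 encode regulators of G protein signalling, which speed the shut-off of heterotrimeric G proteins. PGE2 alone gave −2.04 for Rgs1 and −1.70 for Rgs2 at 1 h, and with LPS present −0.83 and −0.58. The departures of Rgs1 were 0.86 and 1.57 at 1 h, 0.11, 1.00 and 1.20 at 2 h, and −0.23, −0.05 and 0.47 at 4 h. Those of Rgs2 were 0.95 and 1.30, then 0.46, 1.25 and 1.22, then −0.12, −0.29 and −0.29. For Rgs2 all 5 values up to 2 h were positive and all 3 at 4 h negative, at 1.12 ± 0.25, 0.98 ± 0.45 and −0.23 ± 0.10 (F test between times unadjusted p = 0.00108, adjusted p = 0.774). The means of 0.62 and 0.56 had adjusted p = 0.403 and 0.497. For Rgs1 the mean was 0.30 on the linear scale, and for Rgs2 0.32 with zeros taken as missing. Of 13 RGS genes tested, 4 had an unadjusted p under 0.05, 3 above and 1 below the sum, against 8.98% of all genes, and the median of the list was 0.05.

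Plk2, a polo-like kinase gene that CREB and stress signals control, had ratios of opposite sign with the 2 agents. LPS gave 1.97, 1.39 and 1.27 at 1, 2 and 4 h and PGE2 −1.88, −1.39 and −0.87, and both together 0.62, 0.20 and 0.19. The departures ranged from −0.67 to 0.79 with a mean of 0.13 (SE 0.13). Atf3, a stress-induced transcription factor, was opposed in the same way, with LPS at 1.20 ± 0.19, PGE2 at −1.64 ± 0.27 and both at 0.35 ± 0.14 at 2 h. Its departures at 2 h were 0.72, 0.85 and 0.80, and the mean of 8 was 0.46 (SE 0.12, 7 of 8 above 0, adjusted p = 0.282). On the linear scale the mean departures of both genes turned negative, at −0.85 for Plk2 and −0.51 for Atf3. Plau, the urokinase gene, had PGE2 ratios of −0.91, −0.93 and −0.93 and departures of 1.73 and 0.84, then 0.27, 1.23 and 0.34, then 0.14, 0.78 and 0.21, all above 0.

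**Figure D4:**
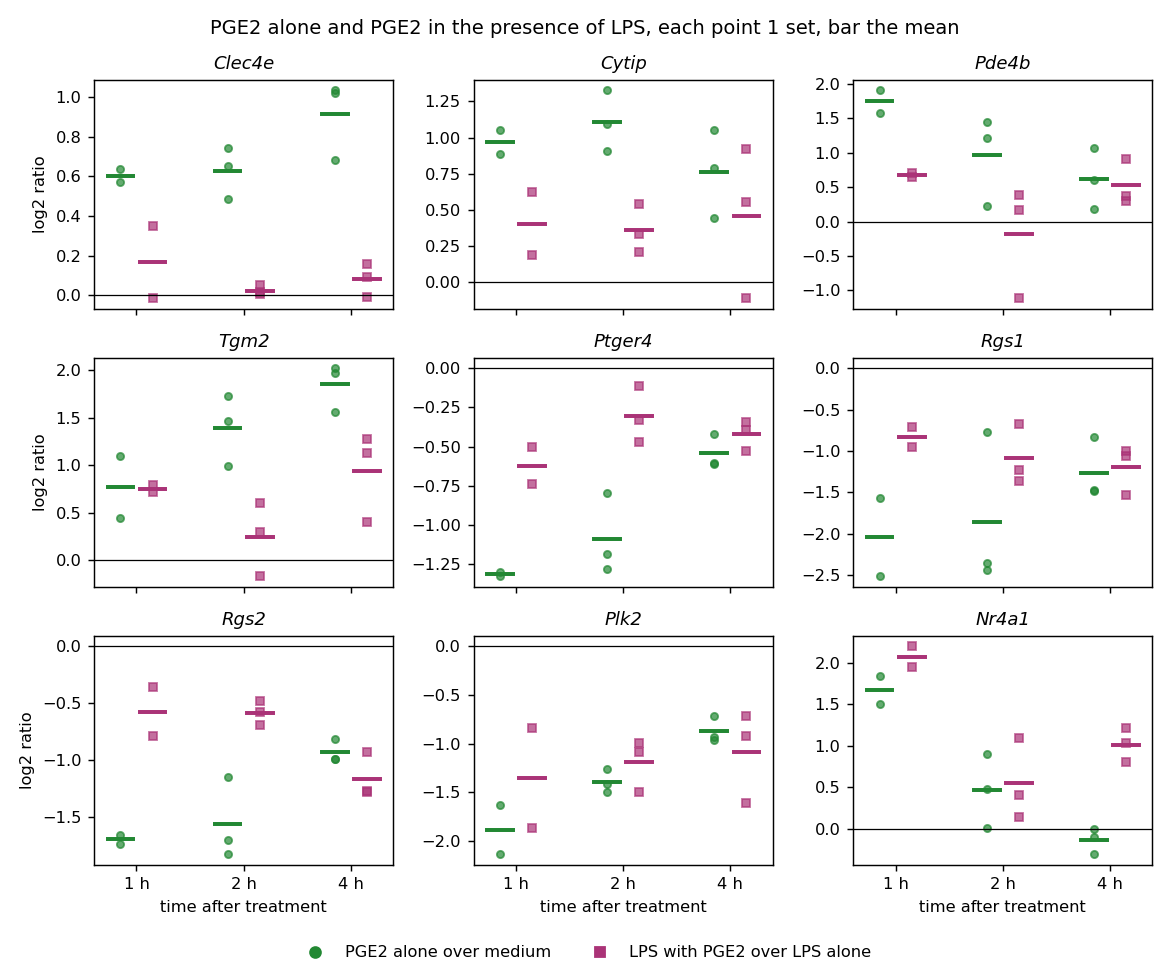
Log2 ratio (vertical axes) of PGE2 alone over medium (circles) and of LPS with PGE2 over LPS alone (squares) at 1, 2 and 4 h for 9 genes; each point is 1 set and each bar the mean. The gap between squares and circles is the departure: it was below 0 for Clec4e and Cytip at all times, above 0 for Ptger4, Rgs1 and Rgs2 at 1 and 2 h, and small for Plk2 at 2 and 4 h.

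The 250 bases before the gene start are given for 1 gene above the sum at early times (Rgs2), 1 above it at 4 h (Nr4a1) and 2 below it (Cebpb, Clec4e), to set the motif of the cAMP pathway beside their PGE2 responses. They come from RefSeq with build GRCm38.p6 and run 5′ to 3′ on the gene's strand. Nr4a1 lies at chr15:101266596-101266845 (+), Rgs2 at chr1:144004150-144004399 (−), Cebpb at chr2:167688665-167688914 (+) and Clec4e at chr6:123289872-123290121 (−). Capitals mark TGACG or its reverse complement CGTCA, the half-site of the cAMP response element.
Nr4a1: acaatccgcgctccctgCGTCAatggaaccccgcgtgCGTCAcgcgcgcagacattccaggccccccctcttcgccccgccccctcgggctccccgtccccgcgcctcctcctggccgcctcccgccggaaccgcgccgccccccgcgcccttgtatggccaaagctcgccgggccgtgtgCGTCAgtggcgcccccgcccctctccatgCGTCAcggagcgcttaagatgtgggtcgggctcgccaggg
Rgs2: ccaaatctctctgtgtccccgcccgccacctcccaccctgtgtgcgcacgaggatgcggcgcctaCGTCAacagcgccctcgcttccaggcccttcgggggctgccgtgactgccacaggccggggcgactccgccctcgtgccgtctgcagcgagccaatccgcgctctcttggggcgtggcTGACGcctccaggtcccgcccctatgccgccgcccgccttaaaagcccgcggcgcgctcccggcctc
Cebpb: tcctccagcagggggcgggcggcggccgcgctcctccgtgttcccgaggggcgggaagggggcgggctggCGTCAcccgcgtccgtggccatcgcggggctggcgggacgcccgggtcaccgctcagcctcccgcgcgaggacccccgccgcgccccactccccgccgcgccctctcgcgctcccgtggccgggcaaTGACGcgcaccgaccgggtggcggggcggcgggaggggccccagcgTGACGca
Clec4e: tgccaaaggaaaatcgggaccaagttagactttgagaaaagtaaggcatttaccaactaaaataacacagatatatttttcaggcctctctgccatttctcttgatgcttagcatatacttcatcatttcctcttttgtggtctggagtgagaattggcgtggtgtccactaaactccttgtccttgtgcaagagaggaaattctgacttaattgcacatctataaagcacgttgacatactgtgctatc
The sequences hold 4, 2, 3 and 0 matches in that order. Of 32851 promoters in the table, 17.8% hold at least 1. Of the named genes, 19 with a mean departure above 0 had 21 promoters in the table, 9 of them with a match, and 22 with a mean below 0 had 27 promoters, 8 with a match. A match is a description of these letters and not evidence of binding.

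The 32 immediate early genes had a median departure of −0.38 (1 h), −0.23 (2 h) and 0.02 (4 h), where the median of all genes was 0 at each time. Of them 13 (40.6%) had an unadjusted p under 0.05, against 8.98% of all genes, 9 below the sum and 4 above it. Egr1, a zinc-finger factor downstream of MAP kinases, had departures of −1.23 and −1.12 at 1 h, −0.81, −1.24 and −0.60 at 2 h, and 0.03, −1.15 and −0.16 at 4 h. At 1 h LPS alone gave 5.20 ± 1.06, PGE2 alone 1.10 ± 0.04, and both 5.13 ± 0.94 (SD, n = 2). The mean was −0.78 (SE 0.16, adjusted p = 0.188), and −0.43 on the linear scale. Ier2 averaged −0.61 with 8 of 8 values below 0, and −0.30 on the linear scale. Ier3, an apoptosis regulator, averaged −0.59 with 6 of 8 below 0, −0.34 without set 1 and 0.11 on the linear scale. Fos, the AP-1 subunit gene, was above the sum by 0.20 (SE 0.06) in 7 of 8 values.

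Dusp1, the phosphatase that ends p38 and JNK signalling, had early and late departures of opposite sign. Its departures were −1.26 and −0.77 at 1 h, −0.19, −0.61 and −0.76 at 2 h, and 0.76, 0.49 and 0.47 at 4 h. All 5 early values were negative and all 3 late values positive (unadjusted p = 0.000285 in the F test between times, adjusted p = 0.749). At 1 h LPS gave 3.56 ± 0.01, PGE2 1.28 and both 3.83 ± 0.35. At 4 h LPS gave 0.47, PGE2 −0.26 and both 0.78. Hilpda, a lipid droplet protein gene induced by hypoxia, had departures of −1.45 ± 0.11, −0.74 ± 0.53 and 0.69 ± 0.72. Of its values in set 2, that of 1 h, −1.52, has 1 combination array listed at 0 and that of 4 h, 1.45, 1 LPS array at 0. Vegfa, the angiogenic growth factor gene, stood at −0.40 ± 0.15, −0.25 ± 0.27 and 0.31 ± 0.64. Klf4 and Pparg, regulators tied to alternative activation, stood at −0.07 ± 0.12 and −0.04 ± 0.20 at 1 h and at 0.98 ± 0.17 and 0.62 ± 0.05 at 4 h. Of these genes none passed the F test.

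Tnf, the cytokine gene that macrophages switch on early, lay near the sum. It stood at 3.60, 3.56 and 3.42 with LPS and at 3.43, 3.44 and 3.52 with both, and its departures ran from −0.37 to 0.26 around a mean of −0.08 (SE 0.08). Il1b, which stood at 1.67 ± 0.27 with PGE2 alone at 1 h, had departures of −0.28 and 0.18, then −0.04, −0.56 and −1.18, then 0.37, −0.80 and −0.29, with a mean of −0.32 (SE 0.16). Il1b was at the deposited upper limit of 100-fold on 3 arrays, so some of its ratios are lower bounds. Il1a lay above the sum in 7 of 8 values, from −0.73 to 3.49, with a mean of 0.97 (SE 0.40, adjusted p = 0.522). In the set with its highest value, 3.49, 1 LPS array was listed at 0. Il10, an anti-inflammatory cytokine that cyclic AMP is known to favour, lay above it in 7 of 8, from −0.45 to 1.39, with a mean of 0.42 (SE 0.16, adjusted p = 0.474). That mean was 0.20 without set 2 and 0.12 on the linear scale. Nos2, the inducible nitric oxide synthase gene, averaged −0.09 (SE 0.07) and Socs3, whose product restrains JAK-STAT signalling, −0.02 (SE 0.07).

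Values listed at 0 weigh on several cytokines. Ifnb1, the interferon beta gene, was below the sum in 8 of 8 values, at −0.81 and −0.01, then −2.56, −0.11 and −0.64, then −1.82, −0.65 and −0.37, with a mean of −0.87 (SE 0.27, adjusted p = 0.387). The 2 lowest values are those of set 1 at 2 h and 4 h, in each of which 1 of 2 combination arrays was listed at 0. Without set 1 the mean was −0.36. Csf2, the gene of the growth factor GM-CSF, had its lowest values, −2.03 and −2.63, in the same 2 pairs with a 0, and its mean was −0.54 with zeros kept, 0.04 with zeros missing and 0.09 without set 1. For Il6 the mean of 0.22 became −0.03 with zeros missing, and for Ptgs2, the inducible cyclooxygenase gene, the 2 h value of set 1, −2.88, came from a pair with both combination arrays at 0. The mean of Ptgs2 was −0.15 with all sets and 0.34 without set 1. Csf3 averaged 0.16 (SE 0.21).

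Among chemokines, Ccl4 lay above the sum in 8 of 8 values. PGE2 alone gave −1.20 ± 0.37 at 1 h and −0.96 ± 0.30 at 2 h, LPS alone 1.64 and 2.06, and both 1.39 and 2.77. The departures were 1.04 and 0.84, then 2.59, 0.81 and 1.64, then 0.20, 0.84 and 0.22, with a mean of 1.02 (SE 0.24, adjusted p = 0.251 in limma). The mean was 0.51 with zeros taken as missing (adjusted p = 0.211) and 0.45 on the linear scale (adjusted p = 0.599). Its 3 probes averaged 1.30, 0.39 and 1.38. Ccl3, its neighbour in function, averaged 0.92 with 8 of 8 above 0, but was listed at 0 on 5 of 6 LPS arrays at 2 h and on all 12 LPS and combination arrays at 4 h, so its 4 h departures hold the PGE2 ratio alone. Cxcl2, at 0 on 22 of the 32 arrays with LPS, averaged −0.59 (SE 0.52), and −1.37 to −0.16 when 1 set was left out in turn. Cxcl10 averaged −0.24 (SE 0.33), and −0.0011 with zeros taken as missing. Its 4 h values in all 3 sets, −1.13, 1.71 and −1.93, each have at least 1 LPS or combination array listed at 0. Without set 1, 2 or 3 its mean was −0.10, −0.62 or −0.04. Of 22 chemokines tested, 3 (13.6%) had an unadjusted p under 0.05, against 8.98% of all genes, 2 above and 1 below the sum.

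For the mean over times, no member of any list passed over all genes. All lists, including those of RGS, immediate early and chemokine genes above, were chosen with earlier results of these data known. Their shares are therefore descriptions. NF-kB subunits and feedback regulators had 8 of 23 members at unadjusted p under 0.05 (34.8%, against 8.98% of all genes), all 8 below the sum, and a median of −0.06. They included Traf1, an adaptor of TNF receptors, at −0.76 (SE 0.15, 8 of 8 below 0, probes at −0.44 and −1.09) and Nfkbie, which encodes IkB epsilon, at −0.52 (SE 0.12). The mean of Traf1 was −0.49 without set 1 and −0.49 with zeros taken as missing, with adjusted p = 0.435 and 0.0922 in limma. On the linear scale Traf1 was at −0.41 and Nfkbie at −0.16. Targets of cAMP and CREB had 21 of 46 members (45.7%), 13 below and 8 above, with a median of −0.08. The list of PGE2 receptors and cAMP signalling components had 6 of 34, with a median of −0.0006. Interferon-stimulated genes had 4 of 44 (9.09%), near the share of all genes. Of these 44, 34 were below 0, with a median of −0.06 against 0.0012 over all genes. Apoptosis and survival genes had 8 of 27, of which 7 were below, and cytokines and growth factors 8 of 29. The 38 genes of S phase and mitosis had 1, with 29 of the 38 above 0, and the 16 reference genes 1. Among genes with both ratios below 0 at 4 h, Igf1, a growth factor gene, averaged 0.27 (SE 0.04) and Trem2, a lipid-sensing receptor gene, 0.26 (SE 0.05), with 8 of 8 values above 0.

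Shares of the other lists at unadjusted p under 0.05 lay between 9.09% and 28%, against 8.98% of all genes. Alternative activation and arginine metabolism had 7 of 25 members, Toll-like receptors and pattern recognition 6 of 24 and eicosanoid enzymes 4 of 19. Adhesion, matrix and proteases had 4 of 28, glycolysis and hypoxia 3 of 21, and oxidative and heat stress 3 of 25. Lipid handling and sterol synthesis had 2 of 19, antigen presentation 2 of 22, and MAP kinase phosphatases and Sprouty proteins 1 of 10. These last shares were near that of all genes.

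**Figure D5:**
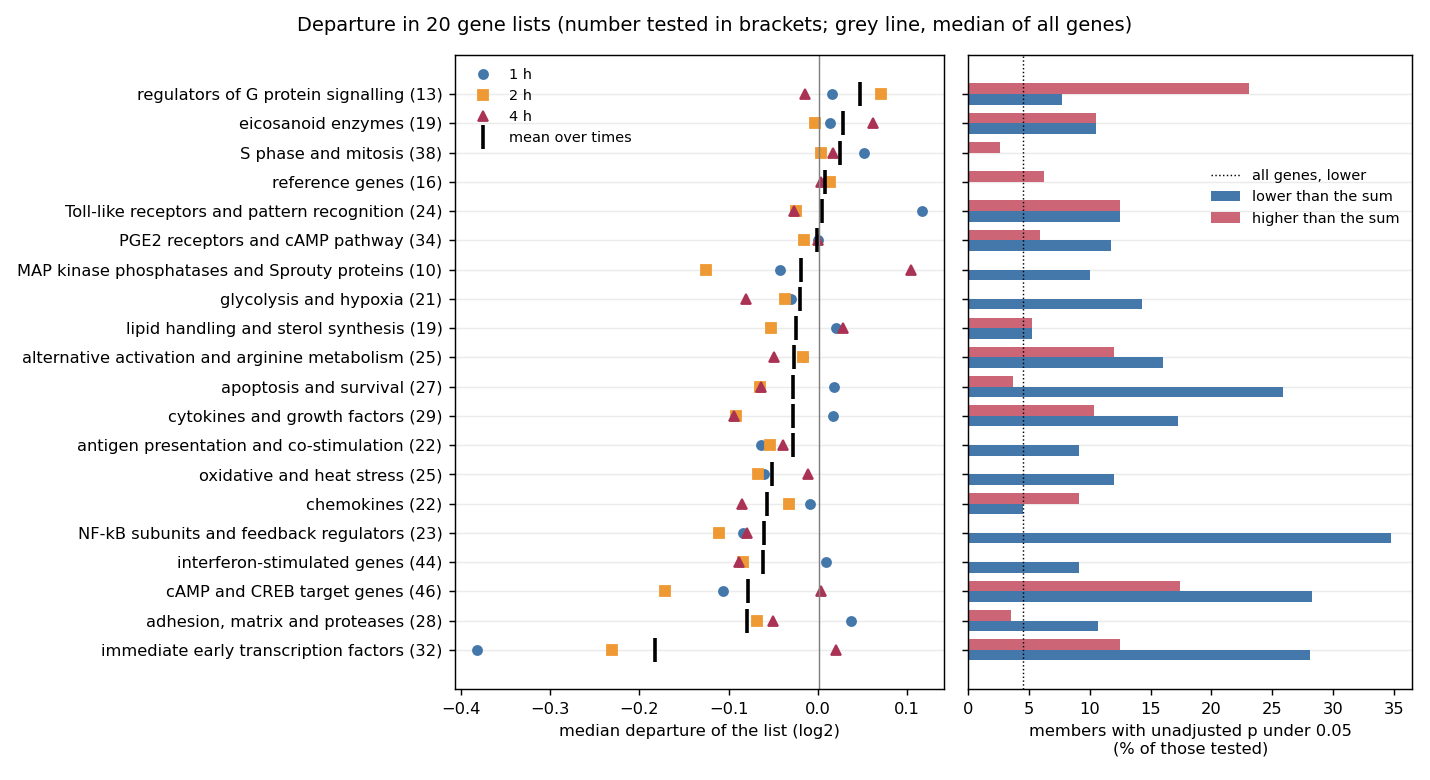
Left, median departure (log2) of 20 gene lists at each time and for the mean of 8 values (black ticks), with the number of genes tested in brackets; right, percent of members at unadjusted p under 0.05 below (blue) and above (red) the sum, with a dotted line at 4.54%, the share of all genes below it. Immediate early factors had the lowest medians at 1 and 2 h, and NF-kB regulators the highest share below the sum.

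Isoproterenol is a beta-adrenergic agonist that also raises cyclic AMP, and the departure of LPS with ISO was computed for the same sets and times. It adds 16 arrays with ISO alone and 16 with LPS and ISO, and uses the same LPS-alone arrays, so the values are set side by side only. The mean ISO departures were −0.74 ± 0.34 for Clec4e, −0.81 ± 0.37 for Cytip, −0.95 ± 0.40 for Tgm2 and −0.93 ± 0.70 for Pde4b (SD, n = 8). For genes above the sum they were 0.55 ± 0.33 for Ptger4, 0.62 ± 0.37 for Usp2, 0.70 ± 0.46 for Rgs1 and 0.77 ± 0.52 for Rgs2. The difference between the PGE2 and the ISO departure, in which the LPS-alone arrays cancel, was called for 0 of 10518 genes in limma (0%), with 641 at unadjusted p under 0.05 and a smallest adjusted p of 0.57. The PGE2 departure exceeded the ISO departure by 0.34 for Ier3, 0.36 for Dusp1 and 0.41 for Vegfa, with adjusted p of 0.57, 0.778 and 0.785 in limma. Doses of the 2 agents were not matched by any measure in the labels.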

How the data were processed

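The authors deposited 1 table of log2 ratios per probe and array from 2-colour custom Agilent oligonucleotide arrays, per the series design text. No source used here gives the scanner settings, normalization or filters, and intensities were not analysed, so signal over background is unknown. The largest value is log2 of 100, and 10.95 to 45.67% of probes per array are exactly 0.

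Ratios were turned by the dye labels and dye-swap pairs averaged. Of 16281 probes, 13260 with 1 gene symbol (52 had several, 2491 none, 478 were always 0) were averaged to 10518 genes, with symbols updated through Entrez identifiers for 13694 probes. The 8 departures of a gene were tested against 0 in limma 3.58.1 (R 4.3.3, eBayes without trend, Benjamini-Hochberg over all genes, threshold 0.05), checked on simulated data. A fit with a mean per time gave the tests at each time and the F test. Exact two-sided sign-flip tests used all 256 sign patterns. Departures are formed within set numbers, which pair the arrays: deviations from group means correlated at 0.141 to 0.616 in 24 of 24 same-number pairs of groups. At 1 h the deviations of the 2 sets mirror each other and give the same r. The 24 values are therefore not separate checks.

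Named genes were to be those past the threshold with the largest means, and a fixed panel of 34. None passed, so only the panel follows the rule. Other named genes, and the choice of genes in 1 set read in the others, were added after the values were seen. Members and lists were chosen with earlier results of these data known.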

Additional observations from a re-analysis of the deposited data

Results flagged for a closer look

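Of 55 genes looked at, 3 had 1 of their 8 departures far from the other 7, where chance marks about 1 gene in 20. In all 3 the value is from set 1. Ptgs2 stood at −2.88 at 2 h, where both combination arrays were listed at 0, and its mean of −0.148 over 8 values is 0.242 over the other 7. Ier2 stood at −1.58 at 1 h, and its mean of −0.613 is −0.474 without that value. Id1 stood at −1.19 at 1 h, and its mean of −0.519 is −0.424 without it.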

How the results depend on the processing

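Counts are genes at adjusted p under 0.05 in limma. For the mean over times 0 genes were called (944 at unadjusted p under 0.05), and leaving out 1 set in turn gave 0 to 1, Usp2 without set 1 and Lrrc17 without set 3. Without 4 h the count was 1 (Pde4b), with no replicate block 2, with zeros missing 4, among measured genes 12, with robust eBayes 4, with a linear sum 3, and from arrays with the treated RNA in Cy5 alone 16 or in Cy3 alone 4. The calls with a linear sum include Usp2, whose linear sum at 4 h was replaced by the fixed floor, so that count depends on the floor. A dye bias of a gene does not cancel in departures from 1 dye orientation. The 16 and 4 calls therefore cannot be told apart from such a bias. The count was 0 without 1 h or 2 h, with equal weight of times, with centred arrays and with probes tested singly. Departures without the replicate block use group means over sets in place of differences within a set. That fit also takes in the LPS and combination arrays of set 3 at 1 h, which the main fit leaves out. At 2 h that fit called 1 gene (Cnnm2) in place of 0. At 4 h the call of Acod1 ended, leaving 0, with no replicate block, with zeros missing, and in each fit that left out 1 set (0 to 0). Other counts at single times, between times and against ISO stayed at 0. Of 821 recomputed means of 55 genes, 34 turned sign, in 16 genes, and the cause was not tested. With the sum on the linear scale the mean was 0.378 for Il1b, 0.0503 for Dusp1, 0.0261 for Pde4b, −0.851 for Plk2, 0.0507 for Vegfa, 0.104 for Hilpda, −0.509 for Atf3 and 0.109 for Ier3. With zeros missing the mean was −0.0336 for Il6, 0.0385 for Csf2, 0.0523 for Nos2 and 0.0242 for Socs3. Without 1 h the mean was −0.0108 for Csf3, 0.0292 for Dusp1, −0.00619 for Plk2, 0.0268 for Vegfa and 0.00818 for Socs3. Without 2 h the mean was 0.398 for Ptgs2 and 0.0235 for Vegfa. Without 4 h the mean was −0.245 for Il6, −0.00498 for Csf3 and 0.0106 for Socs3. From Cy5 arrays alone the mean was −0.0686 for Plk2 and 0.00377 for Socs3. From Cy3 arrays alone the mean was 0.0292 for Tnf, −0.431 for Il6 and −0.261 for Csf3. Leaving out 1 set, means ran from −0.241 to 0.00661 for Tnf, from −0.963 to 0.0927 for Csf2, from −0.722 to 0.336 for Ptgs2, from −0.00672 to 0.378 for Ptger2, from −0.0433 to 0.229 for Plk2, from −0.152 to 0.0474 for Vegfa and from −0.103 to 0.068 for Socs3. With every array's sign turned, the median of the known LPS targets is −2.99 in place of 2.99. Intensities were not analysed, so the limit that signal over background sets is unknown.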
